A study of Homo sapiens with 3 samples.

Results

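Histones are the proteins around which DNA is wrapped into nucleosomes, and the genes described here are those that encode them. A gene belonged to the set if its symbol was that of a clustered H1, H2A, H2B, H3 or H4 gene. Older HIST names and most newer ones counted, as did 6 histone variants outside the clusters. Some HIST3 and HIST4 genes, such as H2AW, have newer names that this rule missed, and they were added only as an alternative. The rule gave 60 of the 33423 genes listed in at least 1 library. LNCaP–ENZ168 listed 47 of them among 24350 genes, VCaP parental 56 among 27348 and VCaP–ENZ48 58 among 28928, and a gene that a library did not list was counted as 0. Of the 60 genes, 54 were clustered (5 for H1, 13 for H2A, 16 for H2B, 10 for H3 and 10 for H4) and 6 were variants, among them H1-10, H2AX, H2AZ1, H3-3A and H3-3B. They lay mostly in the large cluster on the short arm of chromosome 6, which held 48, and chromosome 1 held 7, 1 of them the variant H3-3A, which lies apart from the clustered genes there.

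Clustered histone genes are transcribed mainly while DNA is replicated, and their mRNAs usually end just after a short stem-loop in place of a poly(A) tail. A stem-loop binding protein and the U7 small nuclear RNA direct this cleavage. Some clustered genes can also give longer, polyadenylated transcripts, which are known mostly from cells that have left the cycle. Variant histones such as H3.3 and H2A.Z are made outside replication too, from ordinary polyadenylated mRNAs, and replace clustered histones in particular stretches of chromatin.

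The cells came from 2 prostate cancer cell lines, LNCaP, from a lymph node metastasis, and VCaP, from a vertebral metastasis, and they were profiled by Drop-seq, in which barcoded beads in droplets capture mRNA by its poly(A) tail and each captured molecule carries a unique molecular identifier (UMI). LNCaP–ENZ168 was LNCaP kept in 10 µM enzalutamide (ENZ), an androgen receptor antagonist, for 168 h. VCaP–ENZ48 was VCaP in 10 µM ENZ for 48 h, and VCaP parental was VCaP in the vehicle, 0.1% DMSO, for 48 h. Each group was 1 library of 1 line, so no difference below has a replicate check, no test was made, and all intervals are exact 95% intervals that cover counting error only. A vehicle library of LNCaP was not analysed here. Line, time in ENZ and library preparation therefore cannot be told apart in the comparison of LNCaP–ENZ168 with VCaP–ENZ48.

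The kept cells of LNCaP–ENZ168 numbered 944, those of VCaP parental 997 and those of VCaP–ENZ48 947, with median depths of 5389, 17817 and 11224 UMIs. Levels are UMIs summed over a library and scaled to an equal total for each library (CPM), and ratios are log2 ratios of CPM + 1. Each pair of libraries shared 1 cell barcode. ERG, which marks the VCaP fusion, was at 0, 105.1 and 57.06 CPM, and 6 markers of blood, endothelial and fibroblast cells summed to 8.553, 0.7174 and 0.9789 CPM, with 3, 2 and 3 of them at 0. Barcodes whose last base was N numbered 212, 860 and 869 of the 1000 in each library, and their part in the results was not tested beyond leaving them out.

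The letters that set clustered genes apart were first read from the reference. A histone stem-loop lay within 150 bases of the stop codon in all 54 clustered genes and in 1 of the 6 variants, H2AX, against 130 of 20046 coding genes (0.649%) in all. The loops below are shown because they are the signal at which a clustered mRNA is normally cut. Capitals mark the 4 loop bases.

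Shared by 31 genes, among them H1-2, H2AC6, H2BC21, H3C10 and H2BC9: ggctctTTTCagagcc
Shared by 8 genes, among them H2BC4, H2BC5 and H2BC12: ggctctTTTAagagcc
Shared by 7 H4 genes, among them H4C3 and H4C8: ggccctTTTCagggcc
H2AX: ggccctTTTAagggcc

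Some genes that moved in opposite ways between the VCaP libraries (below), such as H2AC6 and H2BC9, had the same loop. The H2AC6 loop lay at chr6:26124669-26124684 (plus strand, GRCh38), that of H2BC21 at chr1:149886188-149886203 (minus strand) and that of H4C3 at chr6:26104317-26104332 (plus strand). Since beads caught poly(A), levels are not comparable between genes, and a clustered gene was counted only as far as its transcripts were caught.

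Summed over the 54 clustered genes, the level was 1190 CPM in LNCaP–ENZ168 (1163 to 1217), 2302 CPM in VCaP parental (2281 to 2324) and 855 CPM in VCaP–ENZ48 (839.9 to 870.3). VCaP parental had the highest sum, and VCaP–ENZ48 lay below it by 1.43 on the log2 scale (log2 ratio −1.43, −1.46 to −1.40). Both rested on H4C3, which gave 398.4, 1823 and 317.8 CPM of these sums. Without it VCaP parental was the lowest library, and the VCaP log2 ratio turned positive. The 6 variants summed to 2284 CPM (2247 to 2322), 2781 CPM (2757 to 2804) and 1376 CPM (1357 to 1396) in the same order, a log2 ratio of −1.01 (−1.04 to −0.99) between the VCaP libraries. In a sum over a library, fewer cells in a phase and less RNA per cell cannot be told apart, and values within called phases follow. All histone genes together took 0.3474% of UMIs in LNCaP–ENZ168, 0.5083% in VCaP parental and 0.2231% in VCaP–ENZ48.

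**Figure D1:**
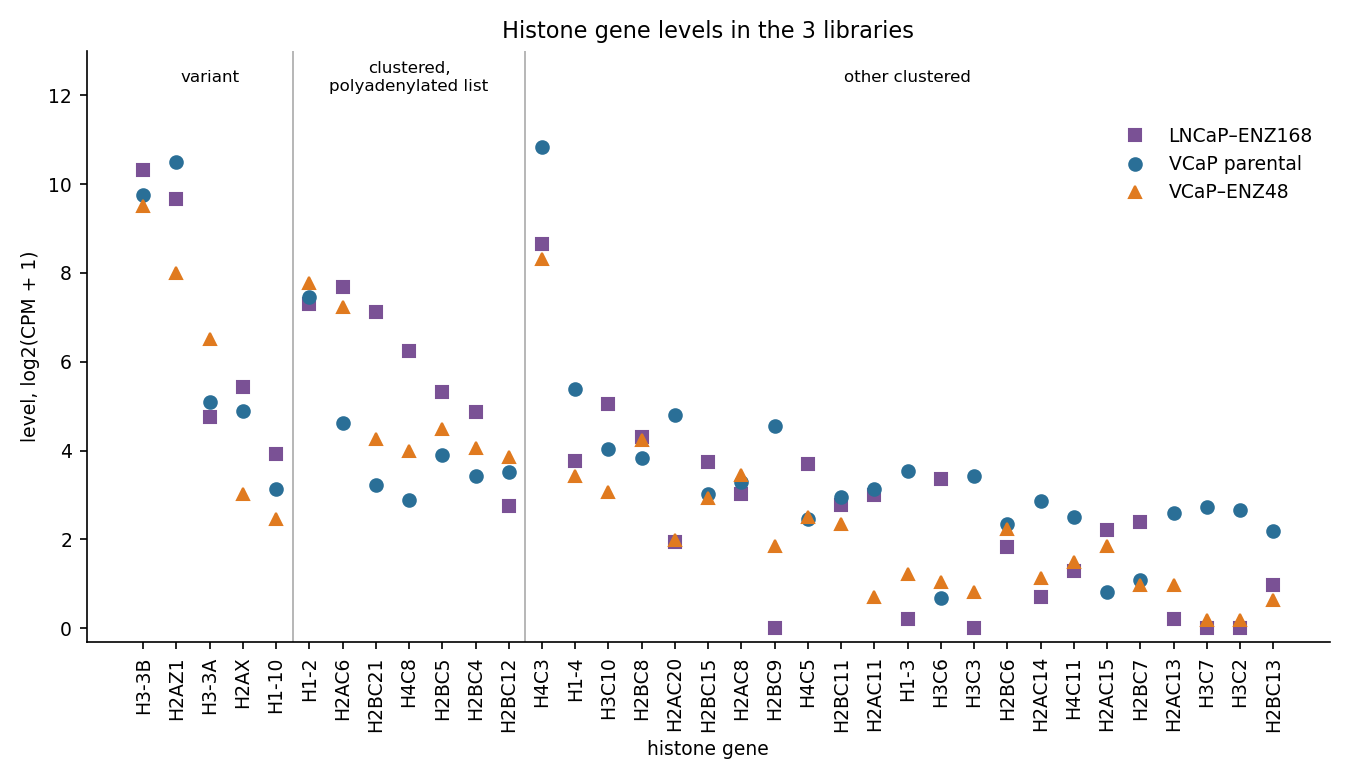
Level of the histone genes whose mean reached 2 CPM in either comparison, as far as they are reported here, with log2(CPM + 1) on the vertical axis, 1 symbol for each of the 3 libraries and genes grouped by class. H4C3 stands above every other clustered gene in all 3 libraries, at 398.4, 1823 and 317.8 CPM.

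The drop in the clustered sum, set by H4C3, hid 2 sets that went opposite ways. A list of 7 clustered genes known to give polyadenylated transcripts (H1-2, H2AC6, H2BC4, H2BC5, H2BC12, H2BC21 and H4C8) summed to 246.7 CPM in VCaP parental (239.8 to 253.7) and 448.9 CPM in VCaP–ENZ48 (438 to 460), a log2 ratio of 0.86 (0.81 to 0.92). H2AC6 alone gave 23.67 and 149.1 CPM of these sums, so much of the rise was in 1 gene. The other 47 clustered genes summed to 2056 CPM (2036 to 2076) and 406.1 CPM (395.7 to 416.7), 5.06-fold lower in VCaP–ENZ48 (log2 ratio −2.34, −2.38 to −2.30). The list thus made up 10.71% (10.43 to 11) of the clustered UMIs of VCaP parental but 52.5% of those of VCaP–ENZ48 (51.61 to 53.39). In LNCaP–ENZ168 the list summed to 647.7 CPM (628 to 667.8) and the other 47 genes to 542 CPM (524 to 560.5). The share of the list there was 54.44% (53.31 to 55.57). These shares depend on H4C3, which gave 33.48% of clustered UMIs in LNCaP–ENZ168, 79.19% in VCaP parental and 37.17% in VCaP–ENZ48.

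Between the VCaP libraries, 33 of the 60 genes had a mean of at least 2 CPM. Of these, 4 were at least 2-fold higher in VCaP–ENZ48, where 12.8% of all 12935 genes were, and 15 were at least 2-fold lower, where 5.23% of all genes were. The list of 7 had 3 higher and 0 lower, with a median log2 ratio of 0.64, and the 20 other clustered genes that passed had 0 higher and 13 lower, with a median of −1.68. The variants had 1 higher and 2 lower, and the median of all genes was 0.11. Those of the 20 that passed only through their level in VCaP parental had to be lower in VCaP–ENZ48. With at least 2 CPM required in both libraries, 11 other clustered genes were left with 4 lower and a median of −0.60, while 596 of 11675 genes were lower in all. Of the 33 genes, 2 in place of 4 were higher under TMM or median-of-ratios scaling, which shifted the median of all genes by −0.27 and −0.21. The share of all genes that were higher under these scalings is not given here.

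H2AC6 (chr6:26124145-26139116, plus strand) encodes a canonical H2A. It was at 23.67 CPM in VCaP parental (21.56 to 25.93, 462 UMIs), 149.1 CPM in VCaP–ENZ48 (142.8 to 155.5, 2132 UMIs) and 205.4 CPM in LNCaP–ENZ168 (194.4 to 216.9, 1297 UMIs). Both ENZ libraries lay well above VCaP parental, by 6.3-fold for VCaP–ENZ48 (log2 ratio 2.60, 2.51 to 2.80).

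H2BC21 (chr1:149884459-149886682, minus strand), an H2B gene of the chromosome 1 group, followed the same order at a lower level. Its values were 8.352 CPM in VCaP parental (7.119 to 9.738), 18.25 CPM in VCaP–ENZ48 (16.1 to 20.6) and 138.8 CPM in LNCaP–ENZ168 (129.7 to 148.3). The log2 ratio was 1.04 (0.84 to 1.42) between the VCaP libraries and 2.86 (2.73 to 3.13) for LNCaP–ENZ168 over VCaP–ENZ48. H4C8, an H4 gene, was at 6.354, 14.89 and 74.45 CPM in the same order of libraries. Its log2 ratios were 1.11 (0.90 to 1.56) and 2.25 (2.08 to 2.56).

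The other 4 genes of the list were higher in VCaP–ENZ48 by less than 2-fold. The H2B genes H2BC5 (13.84 against 21.47 CPM) and H2BC4 (9.736 against 15.73 CPM) had log2 ratios of 0.60 (0.39 to 0.88) and 0.64 (0.41 to 0.98). H1-2, which encodes a linker histone, was the highest gene of the list in both VCaP libraries, at 174.3 and 216.1 CPM, with a ratio of 0.31 (0.24 to 0.38) that was 0.02 under TMM scaling. H2BC12 was at 10.4 and 13.36 CPM (ratio 0.33, 0.07 to 0.65, and 0.07 under TMM scaling), and 51.1% of its 60-base stretches also occur in other genes, so its count is uncertain.

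**Figure D2:**
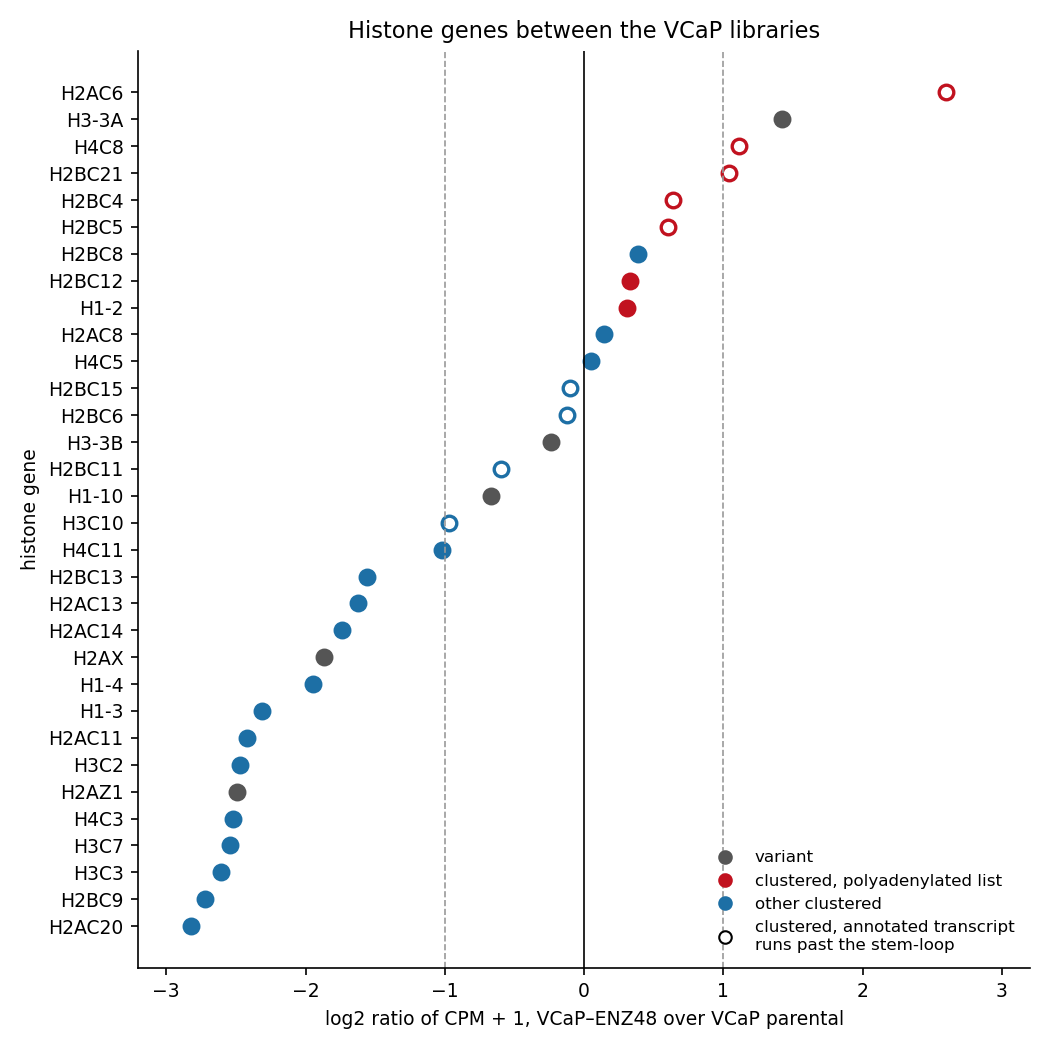
Log2 ratio of CPM + 1 for VCaP–ENZ48 over VCaP parental (horizontal axis) for the histone genes reported here whose mean reached 2 CPM, coloured by class, with open symbols for clustered genes whose annotated transcript runs past the stem-loop. All 7 genes of the polyadenylated list lie above 0 and 13 of the 20 other clustered genes lie below −1, from −2.82 for H2AC20.

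H4C3 (chr6:26103933-26104337, plus strand, 1 exon) is 1 of many genes for the same H4 protein, and it alone gave 79.19% of clustered UMIs in VCaP parental. Its level was 398.4 CPM in LNCaP–ENZ168 (382.9 to 414.2, 2515 UMIs), 1823 CPM in VCaP parental (1804 to 1842, 35582 UMIs) and 317.8 CPM in VCaP–ENZ48 (308.6 to 327.2, 4545 UMIs). VCaP parental stood far above both ENZ libraries, and VCaP–ENZ48 was 5.74-fold lower than it (log2 ratio −2.52, −2.57 to −2.48). Without H4C3 the other clustered genes summed to 143.7, 232.4 and 88.31 CPM, and the VCaP log2 ratio was −1.39 (−1.49 to −1.31). The gene lies inside the annotated span of H2BC4 on the opposite strand, and whether strand was used in counting is not given in the sources used here.

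The stretch just before the H4C3 stem-loop is shown because the beads prime on runs of A. Between the stop codon and the loop lies the 20-base stretch at chr6:26104291-26104310 (plus strand, GRCh38), here in lower case throughout.

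H4C3, before the stem-loop: aaaaaacaaaaacaaaaaaa

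It holds 18 A, begins 31 bases after the stop codon and ends 6 bases before the stem-loop. Among the 54 clustered genes, the richest 20-base window up to the loop held between 7 and 18 A with a median of 10, and the gene next to H4C3 reached 14. Of 20046 coding genes, 2996 (14.9%) have a window with as many A somewhere in a transcript. Whether this stretch has a part in the H4C3 count was not tested.

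Other clustered genes were low in both ENZ libraries. H2AC20, an H2A gene of the chromosome 1 group, was at 2.851 CPM in LNCaP–ENZ168 (18 UMIs), 26.75 CPM in VCaP parental (522 UMIs) and 2.937 CPM in VCaP–ENZ48 (42 UMIs), 9.11-fold lower in the last than in VCaP parental (log2 ratio −2.82, −3.68 to −2.73). H2BC9 (chr6:26251614-26252075), an H2B gene, had 0, 442 and 37 UMIs in the same order, or 22.65 and 2.587 CPM in the VCaP libraries (log2 ratio −2.72, −3.66 to −2.64). With 0 UMIs, LNCaP–ENZ168 was at least 5.44-fold lower than the measured level of VCaP–ENZ48, taking 3 counts per library as the limit that a count of 0 allows. With the counting error of both libraries, the upper limit of this log2 ratio was −2.07. H1-4, a linker histone gene, was at 12.51, 40.69 and 9.789 CPM (VCaP log2 ratio −1.95, −2.32 to −1.79).

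The 10 clustered H3 genes summed to 41.81 CPM in VCaP parental and 10.21 CPM in VCaP–ENZ48 (log2 ratio −1.93, −2.30 to −1.78). The H3 genes named here differed in their level in LNCaP–ENZ168, which was 42.13 CPM for the sum. H3C3 had 0, 191 and 11 UMIs in the same order. Its log2 ratio of CPM + 1 between the VCaP libraries was −2.61, and the interval of the ratio of counts, which has no added 1, was −4.70 to −2.80. H3C10 was highest in LNCaP–ENZ168, at 32.15 CPM (27.88 to 36.9). It too was lower in VCaP–ENZ48 (7.412 CPM) than in VCaP parental (15.42 CPM), with a log2 ratio of −0.97 (−1.39 to −0.73). H3C6 was seen mostly in LNCaP–ENZ168, with 59, 12 and 15 UMIs, and was 8.91-fold higher there than in VCaP–ENZ48. It did not reach the 2 CPM minimum for the VCaP pair. H2AC11, an H2A gene, had 44, 151 and 9 UMIs, so VCaP–ENZ48 was the low library for it.

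Several clustered genes off the list differed little between the VCaP libraries. H2BC8 was at 13.32 CPM in VCaP parental and 17.76 CPM in VCaP–ENZ48 (log2 ratio 0.39, 0.16 to 0.67). H2BC15 (7.174 and 6.643 CPM) and H2AC8 (8.865 and 9.859 CPM) had intervals of −0.50 to 0.28 and −0.18 to 0.48 that held 0, and the sign of H2AC8 turned from 0.14 to −0.13 under TMM scaling.

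Genes were then grouped by where their annotated transcripts end, a grouping chosen after their values were seen. In Gencode v44, 12 clustered genes have a transcript that runs more than 50 bases past the stem-loop, 5 of them on the list of 7. These 12 summed to 552.5 CPM in LNCaP–ENZ168, 96.28 CPM in VCaP parental and 243.6 CPM in VCaP–ENZ48 (VCaP log2 ratio 1.33, 1.26 to 1.42). The 42 genes that end at the stem-loop summed to 637.2, 2206 and 611.4 CPM (−1.85, −1.88 to −1.82). The 41 of them without H4C3 summed to 238.9, 382.8 and 293.6 CPM (−0.38, −0.44 to −0.33). Much of this was H1-2, at 156.2, 174.3 and 216.1 CPM. Of the 41, 17 passed the 2 CPM minimum for the VCaP pair, with a median of −1.74. Among them 12 were at least 2-fold lower and 0 higher, against 5.23% and 12.8% of all genes. Those that passed only through VCaP parental had to be lower. On the list, the 5 genes that run past the loop had a VCaP ratio of 1.81 (1.73 to 1.92) and the 2 that end at it, H1-2 and H2BC12, of 0.31 (0.24 to 0.38). H2AC6 alone gave 23.67 of the 61.95 CPM of these 5 in VCaP parental and 149.1 of the 219.4 CPM in VCaP–ENZ48. The median ratio by gene was 1.04 for the 5, and 0.60 for the 9 of the 12 that passed the 2 CPM minimum. The 7 genes that run past the loop but are off the list had a ratio of −0.49 (−0.70 to −0.32).

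**Figure D3:**
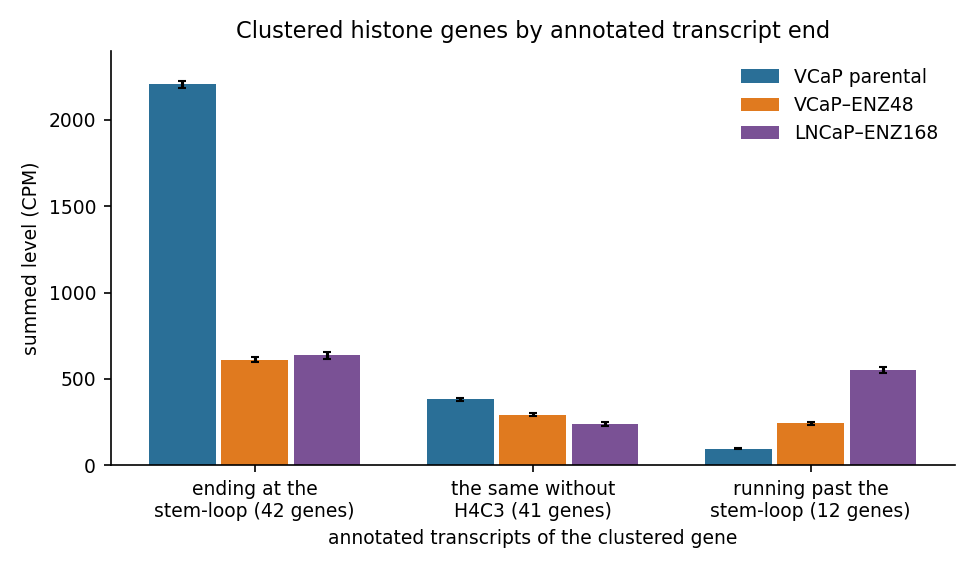
Summed level in CPM (bars, from 0, with exact 95% counting intervals) of clustered genes whose annotated transcripts end at the stem-loop, the same genes without H4C3, and genes whose transcripts run past it, in VCaP parental, VCaP–ENZ48 and LNCaP–ENZ168. The first group is highest in VCaP parental (2206 CPM) and the group running past the loop is highest in LNCaP–ENZ168 (552.5 CPM). The group without H4C3 includes H1-2, at 174.3 CPM in VCaP parental and 216.1 CPM in VCaP–ENZ48.

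Clustered H2A and H2B genes often start side by side on opposite strands. In these data 10 H2A genes had an H2B partner whose start lay 170 to 251 bases away, and both partners passed the 2 CPM minimum in 5 pairs. H2AC20 and H2BC21 start 236 bases apart and went opposite ways between the VCaP libraries, with log2 ratios of −2.82 and 1.04. It was the only 1 of the 5 pairs to do so. H2AC20 ends 5 bases past its stem-loop, and H2BC21 runs 1729 bases past its own. H2AC6 and H2BC4, 219 bases apart, both run past their loops and both lay above 0 (2.60 and 0.64). H2AC11 and H2BC11, 248 bases apart, both lay below 0 (−2.42 and −0.60). H2AC11 ends 5 bases past its stem-loop and H2BC11 runs 6424 bases past its own, the same layout as H2AC20 and H2BC21. A link between these ends and the ratios was not tested.

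The stretch between H2BC21 and H2AC20 is shown because both genes start from it, and that of H2BC9 because this H2B gene had nearly the same ratio as H2AC20. The sequences are RefSeq windows of 250 bases before the gene start on GRCh38.p14, each read on the strand of its gene, and 54 of the 60 genes had one. Capitals mark the octamer ATTTGCAT, CCAAT and TATAAA, each on either strand, where TATAAA can overlap its own reverse.

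H2BC21, chr1:149886683-149886932 (minus strand): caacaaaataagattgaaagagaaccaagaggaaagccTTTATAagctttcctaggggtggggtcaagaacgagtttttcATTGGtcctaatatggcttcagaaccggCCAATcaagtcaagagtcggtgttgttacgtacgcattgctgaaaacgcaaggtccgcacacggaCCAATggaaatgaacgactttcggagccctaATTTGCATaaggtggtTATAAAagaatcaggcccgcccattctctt
H2BC9, chr6:26251364-26251613 (plus strand): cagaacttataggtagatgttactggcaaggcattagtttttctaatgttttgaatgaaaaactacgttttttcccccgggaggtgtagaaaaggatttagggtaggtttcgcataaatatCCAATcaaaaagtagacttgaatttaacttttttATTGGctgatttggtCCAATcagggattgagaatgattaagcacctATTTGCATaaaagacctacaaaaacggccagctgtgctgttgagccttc
H2AC6, chr6:26123922-26124171 (plus strand): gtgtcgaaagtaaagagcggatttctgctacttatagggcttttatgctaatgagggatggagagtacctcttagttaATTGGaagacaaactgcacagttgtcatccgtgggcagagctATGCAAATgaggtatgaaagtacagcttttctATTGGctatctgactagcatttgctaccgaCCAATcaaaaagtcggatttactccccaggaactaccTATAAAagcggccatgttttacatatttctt

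The H2AC6 window overlaps the start of that gene in Gencode v44, and the H2BC21 window reaches into the first bases of H2AC20. The octamer was in the windows of 13 of 16 H2B genes (81.2%), 10 of 12 H2A genes (83.3%) and 0 of the 5 H1, 8 H3 and 8 H4 genes with a window, against 573 of all 35116 promoters (1.63%). Divergent partners share much of a window, so these counts are not independent. CCAAT was in 43 of 49 clustered windows (87.8%, all promoters 32%), but in 2 of 8 for H4. TATAAA was in 32 of 49 (65.3%, all promoters 10.7%). The letters did not separate the 2 sets that moved apart. The octamer was in 4 of the 7 list genes (57.1%) and in 19 of 42 other clustered genes (45.2%), and a match describes letters only.

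Among the variants, H3-3B and H3-3A encode the same H3.3 protein. H3-3B was at 1283 CPM in LNCaP–ENZ168 (1255 to 1311), 861 CPM in VCaP parental (848.1 to 874.1) and 729.5 CPM in VCaP–ENZ48 (715.6 to 743.6), the least changed variant of the VCaP pair (log2 ratio −0.24, −0.27 to −0.20). H3-3A was at 26.14 CPM (22.3 to 30.44), 33.15 CPM (30.65 to 35.81) and 90.41 CPM (85.55 to 95.48), and was 2.73-fold higher in VCaP–ENZ48 than in VCaP parental (log2 ratio 1.42, 1.31 to 1.59). H3-3A therefore gave 3.708% (3.432 to 3.999) of the H3.3 UMIs of VCaP parental, 11.03% (10.47 to 11.61) of those of VCaP–ENZ48 and 1.997% in LNCaP–ENZ168 (1.706 to 2.322). Part of H3-3A is shared with its pseudogenes, so its count is uncertain.

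H2AZ1, which encodes H2A.Z, was at 814.6 CPM in LNCaP–ENZ168 (792.5 to 837.2), 1445 CPM in VCaP parental (1428 to 1462) and 256.3 CPM in VCaP–ENZ48 (248 to 264.7). VCaP–ENZ48 was 5.64-fold below VCaP parental (log2 ratio −2.49, −2.55 to −2.45), a drop close in size to that of H4C3. H2AX, the variant that is phosphorylated at DNA breaks, was at 42.13, 28.64 and 7.132 CPM, 4.02-fold lower in VCaP–ENZ48 than in VCaP parental (log2 ratio −1.87, −2.32 to −1.70). H2AX is also the variant with a stem-loop, and its annotated transcript runs 1024 bases past it, unlike most clustered genes.

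H1-10, a linker histone variant, was at 14.1 CPM in LNCaP–ENZ168, 7.738 CPM in VCaP parental and 4.475 CPM in VCaP–ENZ48, with a VCaP ratio of −0.67 (−1.24 to −0.36).

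In the comparison of the ENZ libraries, LNCaP–ENZ168 was higher by 0.48 (0.43 to 0.52) for the clustered sum and 0.73 (0.70 to 0.76) for the variants, but the median of all genes was itself at 0.57, and under TMM scaling the clustered ratio turned to −0.05. Of 27 histone genes that passed the minimum, 10 were at least 2-fold higher in LNCaP–ENZ168, where 33.9% of all 13990 genes were, and 3 were lower, where 17% were. The ratios stayed apart by gene. H2BC21 (2.86), H4C8 (2.25), H2AX (2.41, 2.23 to 2.91) and H2AZ1 (1.66, 1.61 to 1.73) were higher in LNCaP–ENZ168. H3-3A (−1.75, −2.03 to −1.56) and H2BC12 (−1.10, −1.78 to −0.71) were higher in VCaP–ENZ48. H4C3 was at 0.33 (0.26 to 0.40), but at −0.20 under TMM scaling.

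Cells were given a cell cycle phase from other genes, none of them histone genes of the set. G1 was called for 738 of the LNCaP–ENZ168 cells (78.26%), 284 of the VCaP parental cells (28.49%) and 777 of the VCaP–ENZ48 cells (84.73%). S was called for 110, 391 and 116 cells and G2/M for 95, 322 and 24, so the mix of phases differed between the VCaP libraries and moved with the class sums. A cell with low scores for both S and G2/M was called G1, and phases of shallow cells are uncertain.

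The other clustered genes were higher in S than in G1 in every library. They were at 336 CPM in G1 and 984.2 CPM in S in LNCaP–ENZ168 (log2 ratio 1.55, 1.42 to 1.68), 570.2 and 2455 CPM in VCaP parental (2.10, 2.05 to 2.16), and 295.4 and 908.8 CPM in VCaP–ENZ48 (1.62, 1.54 to 1.70). In G2/M they were higher still, at 1427, 2726 and 1239 CPM. H4C3 set most of this, going from 180.1 to 895.2 CPM, from 444.4 to 2213 CPM and from 218.7 to 767.5 CPM between G1 and S. Without H4C3 the S over G1 ratio was 0.94 (0.81 to 1.08) in VCaP parental and 0.87 (0.68 to 1.08) in VCaP–ENZ48, but −0.80 (−1.19 to −0.45) in LNCaP–ENZ168.

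The summed list of polyadenylated genes did not follow S phase. It was at 751.9 CPM in G1, 379.2 CPM in S and 247.1 CPM in G2/M in LNCaP–ENZ168, lower in S by 0.99 on the log2 scale (−1.16 to −0.82 for the log2 ratio of −0.99). In VCaP parental it was at 267.1, 225.4 and 255.5 CPM (S over G1 −0.24, −0.35 to −0.14). In VCaP–ENZ48 it was at 443.6, 485.4 and 434.4 CPM, and its S over G1 ratio of 0.13 (0.03 to 0.23) turned to −0.20 without 1 cell, described below. H2BC21 showed the fall most, with a G2/M over G1 log2 ratio of −3.19 in LNCaP–ENZ168 and −2.0 in VCaP parental. H2BC12 went the other way in the VCaP libraries, with S over G1 ratios of 0.71 (0.20 to 1.42) in VCaP parental and 1.31 (0.90 to 1.85) in VCaP–ENZ48 (1.13, 0.70 to 1.69, without that cell).

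**Figure D4:**
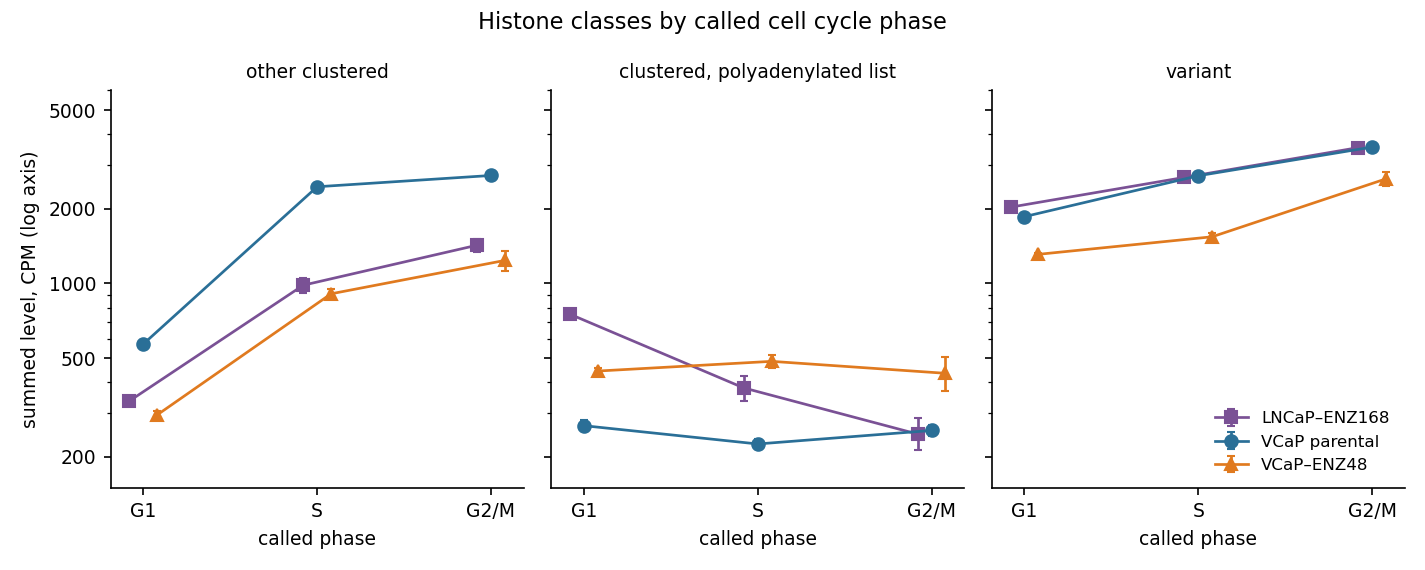
Summed level in CPM (log axis, exact 95% counting intervals) of the other clustered genes, the polyadenylated list and the variants in cells called G1, S and G2/M of each library. The sum of the other clustered genes climbs from G1 to G2/M in all 3 libraries (for VCaP parental from 570.2 to 2726 CPM). In LNCaP–ENZ168 it does not climb without H4C3, at 155.9 CPM in G1, 89 CPM in S and 121.5 CPM in G2/M. The list falls in LNCaP–ENZ168 from 751.9 to 247.1 CPM.

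Gene by gene, S over G1 was compared with the 2-fold limit where the mean was at least 2 CPM. In VCaP parental, 12 of 36 histone genes were at least 2-fold higher in S (3.19% of all genes) and in VCaP–ENZ48 10 of 26 were (2.69%). In LNCaP–ENZ168, 4 of 28 were higher (6.04% of all genes) and 8 were lower (5.17%). Genes that passed only through their level in S had to be higher. With at least 2 CPM in both phases, 5 of 29 were higher in VCaP parental (311 of 11468 genes in all) and 8 of 24 in VCaP–ENZ48 (227 of 12768). In LNCaP–ENZ168 3 of 22 were higher and 5 lower, against 539 and 355 of 12067 genes in all. H4C3 had log2 ratios of 2.31 (2.17 to 2.46) in LNCaP–ENZ168, 2.31 (2.25 to 2.38) in VCaP parental and 1.81 (1.72 to 1.90) in VCaP–ENZ48. H2AZ1 (1.45, 1.26 and 1.42) and H2AX (2.21, 2.00 and 1.69) were higher in S in all 3 as well. H3-3B stayed near 0 in VCaP parental (0.03, −0.03 to 0.08) and VCaP–ENZ48 (−0.03, −0.12 to 0.05) and was lower in LNCaP–ENZ168 (−0.37, −0.47 to −0.26).

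Within called phases the VCaP libraries still differed. In G1 cells the log2 ratio of VCaP–ENZ48 over VCaP parental was −0.95 (−1.02 to −0.88) for the other clustered genes, 0.73 (0.65 to 0.82) for the list and −0.50 (−0.54 to −0.47) for the variants, with a median of all genes of 0.07. In S cells it was −1.43 (−1.50 to −1.36), 1.10 (0.99 to 1.22) and −0.82 (−0.87 to −0.76). Without the cell with most clustered UMIs of each library, the S ratio of the list was 0.78 (0.66 to 0.91) and that of the other clustered genes −1.57 (−1.64 to −1.49). The ratio of the other clustered genes was thus nearer 0 within each phase than the −2.34 over all cells, while that of the list was of like size. The clustered sum in G1 was nearly level, at −0.18 (−0.23 to −0.13).

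Histone UMIs were then counted per cell after thinning each cell to 2000 UMIs, which left out cells below that depth. At least 1 UMI of the other clustered genes was seen in 54.6% of LNCaP–ENZ168 cells, 84.7% of VCaP parental cells and 45.8% of VCaP–ENZ48 cells (82.3, 99.6 and 87.1% without thinning). At least 5 were seen in 2.55%, 33.1% and 1.53% of cells. For the list the shares with a UMI were 64.8%, 39.6% and 49.7% (89.3, 93.2 and 89.2% without thinning), so the order of libraries differed between the 2 sets. No cell type that lacks histone mRNA is present in a culture of 1 line, so free RNA cannot be told apart from expression at 1 UMI.

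**Figure D5:**
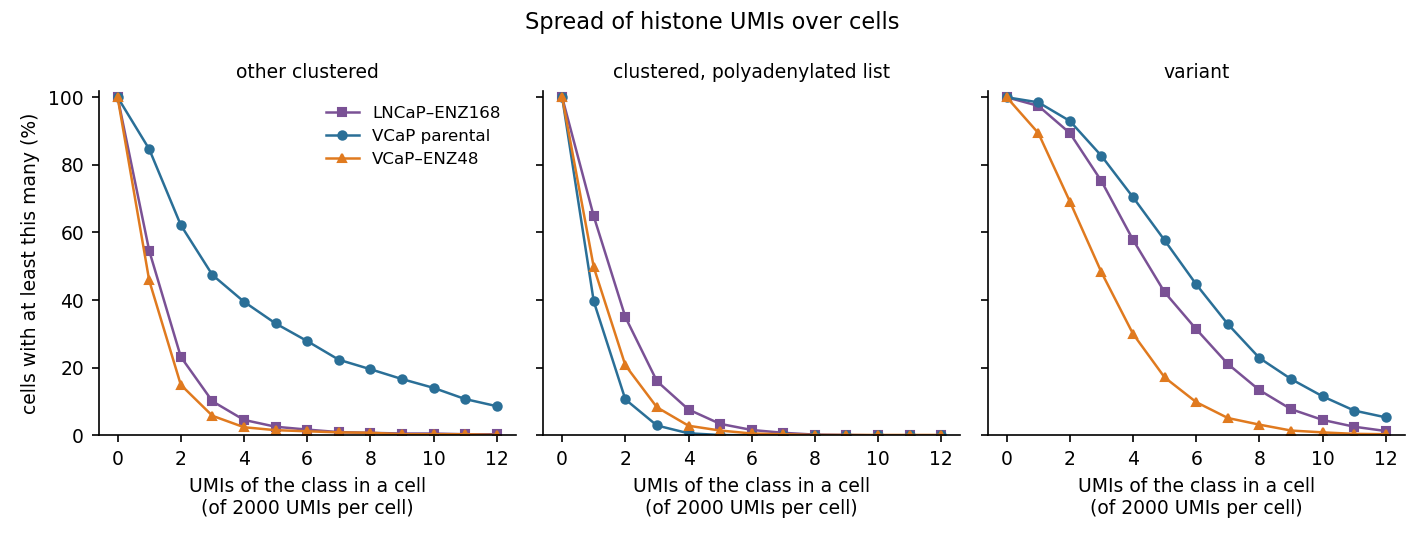
Share of cells (vertical axis, %) with at least a given number of UMIs of the other clustered genes, the polyadenylated list and the variants (horizontal axis) after thinning each cell to 2000 UMIs, 1 line per library. For the other clustered genes, 33.1% of VCaP parental cells hold at least 5 UMIs, against 2.55% in LNCaP–ENZ168 and 1.53% in VCaP–ENZ48.

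The UMIs of the other clustered genes were unevenly spread over cells. The top 10% of cells held 43.2% of them in LNCaP–ENZ168, 35.1% in VCaP parental and 45.6% in VCaP–ENZ48, against 21.9%, 21.6% and 26.1% for the variants. The rank correlation of the per-cell count with the S score was 0.22, 0.54 and 0.14 for the other clustered genes and −0.23, −0.06 and −0.01 for the list, over cells that share a library and are not replicates. A single VCaP–ENZ48 cell called S had 393 clustered UMIs among its 17533, or 22415 CPM, where the next cell had 6090 CPM. It held 151 H1-2 UMIs, 4.89% of all H1-2 UMIs of the library, and the second-highest cell had 45. With it the H1-2 S over G1 ratio in VCaP–ENZ48 was 0.36 (0.23 to 0.50), and without it −0.11 (−0.27 to 0.05).

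The genes that make, process and deposit histones were read from a list of 42. Between the VCaP libraries 39 passed the minimum, with 0 at least 2-fold higher, 13 lower and a median log2 ratio of −0.78, against 12.8% higher, 5.23% lower and a median of 0.11 for all genes. None of the 12 genes of histone transcription and 3′ processing reached 2-fold, but most were lower, with a median log2 ratio of −0.53. Only SYMPK and UPF1 among the 12 had a ratio above 0. SYMPK, a scaffold of the cleavage complex, was at 6.149 CPM in VCaP parental and 7.482 CPM in VCaP–ENZ48, and UPF1, which acts in histone mRNA decay, at 8.66 and 12.59 CPM. CPSF2, a cleavage factor subunit, was at 69.59 and 39.3 CPM. All 3 kinase and cyclin genes that passed were lower, among them CCNA2, the S and G2 phase cyclin, at 94.85 and 7.482 CPM (log2 ratio −3.50).

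Of 24 chaperone and deposition genes, 10 were lower. HJURP, which loads the centromeric H3, went from 84.75 to 9.02 CPM and SSRP1, of the FACT complex, from 310.2 to 154.1 CPM. RBBP4 (84.86 and 77.2 CPM), NAP1L1 (1250 and 1227 CPM) and ATRX (297.8 and 343.8 CPM) differed by less than 2-fold, and ATRX turned from 0.21 to −0.08 under TMM scaling. IPO4, an importer of H3 and H4, was at 6.559 and 8.88 CPM. Some genes of the list, such as HJURP, also served to call phases. In LNCaP–ENZ168 over VCaP–ENZ48, 22 of 40 were higher (33.9% of all genes) and 1 lower (17%), with a median of 1.08 against 0.57 for all genes.

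Histone genes outside the symbol rule were read as well. Among the HIST3 and HIST4 genes whose newer names the rule missed, H2AW was the highest. It was at 92.34 CPM in LNCaP–ENZ168, 24.54 CPM in VCaP parental and 34.96 CPM in VCaP–ENZ48 (VCaP log2 ratio 0.49, 0.33 to 0.69). H2AW thus did not share the fall of the other clustered genes. Its S over G1 log2 ratio in LNCaP–ENZ168 was −0.98 (−1.49 to −0.54). Of 6 further genes outside the rule, 2 were at least 2-fold lower in VCaP–ENZ48 than in VCaP parental. They were H2AZ2 (log2 ratio −1.34) and the centromeric CENPA (−2.65). Of 4 testis histone genes, 2 were listed in a library and 0 reached the minimum.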

How the data were processed

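Drop-seq libraries of LNCaP–ENZ168, VCaP parental and VCaP–ENZ48 (1 each) were used. The authors aligned reads to GRCh38 with STAR 2.7.3a and counted them with Drop-seq tools 2.3.0 and Picard 2.18.22 on Gencode 33, expecting 1000 cells (versions per the submitters' processing notes). They deposited raw UMI counts for each gene and barcode. Use of strand and of reads with several matches is not given in the sources used here.

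Histone genes were chosen by symbol. They and all lists were chosen with earlier results of these data known. Cells were kept with at least 300 genes, 500 UMIs and at most 25% mitochondrial UMIs, and doublets were not removed. UMIs were summed per library or called phase and scaled to CPM, a pseudocount of 1 CPM was added, and genes whose mean reached 2 CPM were called at 2-fold. Sums carry exact Poisson intervals, ratios of counts exact conditional intervals and shares Clopper-Pearson intervals, all at 95%. For low genes the ratio of CPM + 1 can lie outside the interval of the count ratio. A count of 0 allows up to 3 counts (0.475, 0.154 and 0.21 CPM in the order above). Phases were called by CellCycleScoring of Seurat 5.3.0 (43 S and 54 G2/M genes, 0 of them histone genes of the set) on cells thinned to 2000 UMIs, with genes seen in at least 10 cells.

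Named genes were the 6 variants, the 15 clustered genes of highest mean CPM, the 3 largest ratios each way per comparison, and from the pathway list the 3 highest genes and the 2 largest ratios each way. Gene positions, stem-loops (within 150 bases of a stop codon) and shared 60-base stretches were read from Gencode v44 on GRCh38, and promoters from RefSeq on GRCh38.p14. Protein identities were not computed here. The single values of 1 variant are not reported here. The ratios between the VCaP libraries, their intervals and the 2-fold calls were tested on simulated counts, and the other steps were not. In all, 24 alternatives were tried, 3 of them (G1 cells alone, HIST3 and HIST4 genes added, the cell with most clustered UMIs left out) chosen after seeing the data. Python 3.11.15, numpy 2.4.6, pandas 2.3.3, scipy 1.17.1, matplotlib 3.10.9, R 4.3.3, edgeR 4.0.16 (TMM factors) and Matrix 1.6.5 were used.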

Additional observations from a re-analysis of the deposited data

Results flagged for a closer look

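Both genes below stood out because their S over G1 ratio had opposite signs in different libraries, with intervals that left out 0. The difference between libraries was not tested. H1-2 had a log2 ratio of S over G1 cells of 0.36 (0.23 to 0.50) in VCaP–ENZ48 and −0.40 (−0.72 to −0.10) in LNCaP–ENZ168. Without the VCaP–ENZ48 cell that held 151 of its 3091 UMIs, the VCaP–ENZ48 ratio was −0.11 (−0.27 to 0.05). H3C10 had a ratio of 0.54 (0.10 to 1.10) in VCaP parental and 1.02 (0.43 to 1.80) in VCaP–ENZ48, but −0.90 (−1.80 to −0.17) in LNCaP–ENZ168. Without the same cell the VCaP–ENZ48 ratio of H3C10 was 0.87 (0.23 to 1.67). Groups of 1 library allow no search for samples that stand apart.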

How the results depend on the processing

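The opposite signs of the polyadenylated list and the other clustered genes between the VCaP libraries held under all alternatives run. So did the rise of the other clustered genes from G1 to S except where H4C3 was left out in LNCaP–ENZ168. H2AC6 gave much of the rise of the list, at 23.67 CPM in VCaP parental and 149.1 CPM in VCaP–ENZ48. The ratio of the list without H2AC6 is not given here, so how far the sign rests on it was not tested. The values below are log2 ratios in the order clustered, list, other clustered and variants unless named, and the cause of each move was not tested. No paired analysis was possible because the design holds 1 library per group. Leaving out a replicate was not possible either, and depth limits genes of few UMIs, above all in LNCaP–ENZ168 with a limit of 0.475 CPM.

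For VCaP–ENZ48 over VCaP parental the ratios were −1.72, 0.57, −2.63 and −1.30 with TMM scaling, −1.66, 0.63, −2.57 and −1.24 with median-of-ratios scaling, −1.30, 0.99, −2.21 and −0.89 without mitochondrial and ribosomal protein genes, and −1.32, 0.99, −2.24 and −0.98 without barcodes ending in N or 1 base apart. In G1 cells alone they were −0.18, 0.73, −0.95 and −0.50. Without H4C3 and H2AZ1 the clustered ratio changed sign to 0.16, that of the other clustered genes was −1.39 and that of the variants −0.25. Weighting cells equally gave −1.49 for clustered genes and 0.78 for the list. Leaving out the deepest barcodes gave −1.48 for clustered and −2.43 for other clustered genes, adding HIST3 and HIST4 genes −1.38 and −2.23, and leaving out the top cell −1.47 for clustered genes. The count of higher genes, 4 as reported, was 2 with TMM, with median-of-ratios or with a pseudocount of 5, and the count of lower genes, 15 as reported, was 6 in G1 cells and at a minimum of 10 CPM. The shares of all genes under these settings are not given here, so these counts have no background beside them. ATRX turned to −0.08 and −0.02 with the 2 scalings, and RBBP4 to 0.08 in G1 cells.

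For LNCaP–ENZ168 over VCaP–ENZ48 the ratios were −0.05, 0.00, −0.11 and 0.20 with TMM, −0.02, 0.03, −0.08 and 0.24 with median-of-ratios, 0.23, 0.28, 0.17 and 0.48 without mitochondrial and ribosomal protein genes, and 0.56, 0.76, 0.19 and 0.63 in G1 cells. H4C3 turned to −0.20, −0.17 and −0.28 (TMM, median-of-ratios, G1 cells), H2AC6 to −0.07 and −0.03, ATRX to −0.01 (TMM) and HJURP to −0.41 (G1 cells). Without H4C3 and H2AZ1 the clustered, other clustered and variant ratios were 0.56, 0.70 and 0.39. Equal weighting gave 0.64 for the list and 0.32 for other clustered genes, leaving out N-ending barcodes 0.32 for the latter, and adding HIST3 and HIST4 genes 0.53 for clustered and 0.52 for other clustered genes. A minimum of 10 CPM left 5 higher genes, and no minimum gave 5 lower ones, again without the share of all genes beside them.

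The share of clustered among histone UMIs (LNCaP–ENZ168, VCaP parental, VCaP–ENZ48) was 35.01, 26.4 and 32.41% without H4C3 and H2AZ1 and 29.53, 40 and 32.58% with histones outside the rule. It was 33.35% and 37.23% in the ENZ libraries without the deepest barcodes, 36.02% and 39.34% with HIST3 and HIST4 genes, 44.66% and 38.99% in the VCaP libraries without N-ending barcodes, and 37.6% in VCaP–ENZ48 without the top cell.

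The S over G1 ratio of the list in VCaP–ENZ48 turned to −0.10 (N-ending barcodes out), −0.20 (top cell out), −0.06 (phases per library) and −0.29 (second seed), and was 0.29 without the deepest barcodes and 0.34 with phases on unthinned cells. That of the list in LNCaP–ENZ168 was −1.33 (unthinned), −0.55 (per library) and −0.71 (thinned to 1000), and in VCaP parental −0.12 (N-ending barcodes out). For the other clustered genes LNCaP–ENZ168 gave −0.80 without H4C3, and 1.28 (deepest out), 1.22 (HIST3 and HIST4 added), 1.79 (unthinned), 1.06 (per library), 1.35 (thinned to 1000) and 1.12 (thinned UMIs summed). VCaP parental gave 0.94 without H4C3, and 1.84 (N-ending out), 2.01 (per library), 1.91 (thinned to 1000) and 2.03 (thinned UMIs summed). VCaP–ENZ48 gave 0.87 without H4C3, and 1.46 (deepest out), 1.86 (N-ending out), 1.5 (HIST3 and HIST4 added), 1.47 (top cell out), 2.37 (unthinned), 0.89 (per library), 1.28 (thinned to 1000), 1.31 (thinned UMIs summed) and 1.52 (second seed). For the variants, leaving out H2AZ1 gave −0.24, 0.01 and −0.10 in the 3 libraries in the same order. Phases per library gave 0.21 in LNCaP–ENZ168 and 0.11 in VCaP–ENZ48, thinning to 1000 0.31 in LNCaP–ENZ168 and 0.50 in VCaP parental, and VCaP–ENZ48 gave 0.43 (N-ending out), 0.39 (unthinned) and 0.07 (thinned UMIs summed).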

Other observations

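The 60 genes share sequence with other genes to different degrees. A stretch of 60 bases also found in another gene occurred in 26 of them, and in 12 such stretches made up more than 10% of the gene. At 28 of the 60, another annotated gene overlapped. How reads from such places were counted is not given in the sources used here, so the values of those genes are uncertain.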
